A study of Mus musculus with 8 samples.

Results

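Grp, Npy, Cck, Nts, Gcg and Sstr2 were followed through single cells of the embryonic mouse cortex. They are 6 of the 27998 genes in the deposited matrices and were taken by symbol. Of these, 5 encode peptide precursors, namely Grp (gastrin-releasing peptide), Npy (neuropeptide Y), Cck (cholecystokinin), Nts (neurotensin) and Gcg (proglucagon), and Sstr2 encodes a receptor for somatostatin. They were chosen on earlier values from these same libraries, in which Gcg and Sstr2 led a progenitor group rich in ShhN cells and Grp was lower in the ShhN library. Differences between the libraries are therefore a description of the members and support nothing beyond it.

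The ShhN group is 4 samples of CD1 cortex given a ShhN plasmid by in utero electroporation at E13.5, and the other group is 4 samples from wild type littermates of the same strain; all were harvested at E16.5. The plasmid encodes ShhN, the part of sonic hedgehog (SHH) that signals. Electroporation reaches a mosaic of the progenitors along the ventricle. The labels name neither the plasmid's promoter nor a control plasmid for the littermates, and do not say whether a sample pools embryos. Cells were counted on the 10x Genomics droplet platform as unique molecular identifiers (UMIs), and each group's 4 samples stand in 1 matrix. Each group is therefore 1 library, so nothing was tested and no difference has a replicate check. Intervals in square brackets are 95% intervals for counting error, and levels are counts per 1000000 UMIs of the cells summed (CPM).

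The ShhN library gave 8076 cells with a median of 6683.5 UMIs, and the wild type library 6920 cells with a median of 6277.5 UMIs. The libraries shared 73 cell barcodes. Shh had 5900 UMIs in ShhN cells and 0 in wild type cells, at least 1593-fold higher over a floor of 3 counts for the library, and Ptch1, a SHH receptor and target, stood at 33.7 CPM in ShhN and 5.36 CPM in wild type cells. Cells fell into 23 clusters, made without the members among the clustering genes. Of these, 19 were named after marker lists as "like" a class, and clusters 3, 7, 9 and 18 stayed unnamed. Radial glia-like cells were above the other cells for 15 of 15 listed markers and Cajal-Retzius-like cells for 8 of 8, and migrating neuron-like cluster 0 for 5 of 8. These names are a reconstruction, and the study's own may be others.

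Neuropeptides are cut from larger precursors, stored in dense core granules and released to act on G protein-coupled receptors. In the mature cortex Npy and Cck are best known from interneurons, and Cck also from pyramidal cells. Sstr2 lowers cyclic AMP when it binds somatostatin, the product of Sst, which cortical interneurons make; in the embryonic mouse cortex it is known from intermediate progenitors and newborn neurons. Proglucagon is best known as the source of glucagon in the pancreas and of glucagon-like peptides in gut and hindbrain.

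Over all cells Gcg was higher in the ShhN library and Grp and Cck were lower. Gcg had 6.89 CPM in ShhN and 2.46 CPM in wild type cells, a log2 ratio of 1.49 [1.18, 1.80]. Grp had 1.60 CPM in ShhN and 13.9 CPM in wild type cells (-3.11 [-3.44, -2.79]). Cck had 21.6 CPM in ShhN and 46.2 CPM in wild type cells (-1.10 [-1.20, -0.99]). These 3 passed a size rule, which asks for 50 UMIs in the libraries together, a log2 ratio at or beyond 1 or -1, and an interval that stays 0.5 or more away from 0. So 1 of 6 members was higher and 2 of 6 were lower, where 2.85% and 1.84% of all 13023 genes with enough UMIs were; since the members were picked on these libraries, nothing is read from that. The other 3 did not pass. Nts had 5.69 CPM in ShhN and 10.8 CPM in wild type cells (-0.92 [-1.13, -0.72]), Npy 116 and 163 CPM in the same order (-0.49 [-0.54, -0.45]), and Sstr2 108 CPM in ShhN and 88.1 CPM in wild type cells (0.29 [0.24, 0.35]).

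Most of these all-cell ratios, Grp and Nts apart, were small once the cluster make-up was held fixed. The ShhN library held more of cluster 0 (16.7% of cells, against 3.48% in wild type), of dividing cluster 9 (8.41%, against 1.24%) and of cluster 11 (5.56%, against 1.32%), and less of cluster 7 (3.48%, against 8.68%). With ShhN levels weighted by the wild type library's cluster shares of UMIs, the log2 ratio of Gcg was 0.19, of Cck -0.27, of Sstr2 -0.13 and of Npy -0.24. With wild type levels at the ShhN shares it was 1.24 for Gcg, -0.81 for Cck and 0.49 for Sstr2. In that same weighting it was -1.20 for Grp, -0.21 for Npy and -0.31 for Nts. At fixed shares Gcg and Cck no longer passed the size rule, and Sstr2 had the opposite sign. The fixed-share values have no interval, and that of Gcg sums clusters that differed. Its ratio was 0.67 in cluster 0, 0.65 in cluster 2, 0.26 in cluster 11 and -0.60 in cluster 9. Cluster 13, with few Gcg UMIs, had 2.81 CPM in ShhN and 11.97 CPM in wild type cells. The value of 0.19 therefore does not show that Gcg was level within each cluster. Grp kept -2.11 at fixed shares and Nts -0.90. This weighting was chosen after the values were seen.

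**Figure D1:**
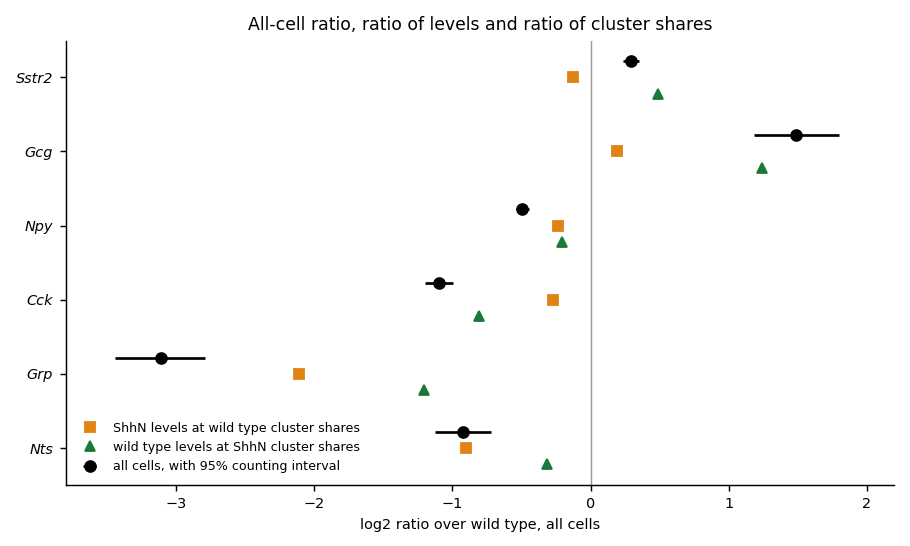
Log2 ratio over wild type for each gene, all cells. Black points are the ShhN over wild type ratio with its 95% counting interval, squares use ShhN levels at wild type cluster shares and triangles wild type levels at ShhN cluster shares; the square of Gcg lies at 0.19 while its black point lies at 1.49.

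Sstr2 was the member seen in the most cells, and its level was highest in clusters with intermediate progenitor and migrating neuron markers. At least 1 Sstr2 UMI was found in 31.8% of ShhN and 26.0% of wild type cells, and at an equal depth of 4500 UMIs per cell in 27.6% [26.5, 28.6] of ShhN and 21.9% [20.7, 23.0] of wild type cells. In neurogenic intermediate progenitor-like cluster 13, led by Eomes and Neurod4, it reached 339.6 CPM in ShhN and 319 CPM in wild type cells. In cluster 11, also neurogenic intermediate progenitor-like and led by Cenpa and Eomes, it stood at 336 CPM in ShhN and 297 CPM in wild type cells. Unnamed cluster 3, which carries Neurod1, Mfap4 and Unc5d, had 322 CPM in ShhN and 403 CPM in wild type cells. Cluster 0, migrating neuron-like and led by Tfap2d, had 278 CPM in ShhN and 330.4 CPM in wild type cells.

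Other clusters were lower. Dividing cluster 9 (Top2a, Nusap1) had 159.9 CPM in ShhN and 225 CPM in wild type cells. Radial glia-like cells had 7.85 CPM in ShhN and 19.8 CPM in wild type cells, on 14 and 27 UMIs. Migrating neuron-like cluster 2 had 70.7 CPM in ShhN and 80.4 CPM in wild type cells, and cluster 1, led by Rspo3 and Cntn2, 10.8 CPM in ShhN and 13.9 CPM in wild type cells. Upper layer neuron-like cells as a class had 7.18 CPM in ShhN and 10.9 CPM in wild type cells, within the intervals of vascular cells, which should lack the gene and had 5 UMIs in each library (3.86 to 27.7 CPM in ShhN and 3.72 to 26.7 CPM in wild type cells). Among wild type clusters the intervals of cluster 3 (403 CPM) and the next, cluster 0, did not overlap, while clusters 0, 13 and 11 each overlapped the next in order and cluster 9 lay above cluster 2 without overlap. Among ShhN clusters, 13, 11 and 3 overlapped, and clusters 0 and 9 each lay apart from their neighbours.

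Within a cluster no Sstr2 ratio passed the size rule. It was -0.32 [-0.44, -0.20] in cluster 3, -0.25 [-0.40, -0.09] in cluster 0 and -0.49 [-0.73, -0.25] in cluster 9, and 0.09 [-0.10, 0.28] in cluster 13. Summed over the migrating neuron-like class it was 0.64 [0.53, 0.76], but the largest cluster of that class was cluster 0 in ShhN cells (1352 of 2997 cells) and cluster 2, followed by cluster 1, in wild type cells (640 and 616 of 1497). Within clusters 0, 1 and 2 the ratios were -0.25, -0.37 and -0.19. Cluster 0 held 35.6% of all Sstr2 UMIs in ShhN cells and 10.5% in wild type cells, and cluster 3 held 14.2% in ShhN and 39.3% in wild type cells. The gene lies on chr11:113619342-113626028 (GRCm38, plus strand, GENCODE vM21) and overlaps Slc39a11, a zinc transporter gene on the other strand. Whether counting used strand is not given in the sources used here. Slc39a11 had 18.4 CPM in ShhN and 20.7 CPM in wild type cells, and in cluster 0 30.8 CPM in ShhN and 38.5 CPM in wild type cells.

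Gcg was found in part of the same stretch of clusters, at a far lower count. In ShhN cells it stood at 22.1 CPM [18.96, 25.6] in cluster 0, 20.1 [15.1, 26.2] in cluster 11, 13.2 [10.5, 16.4] in cluster 9 and 10.3 CPM [7.58, 13.6] in cluster 2. In wild type cells cluster 9 had 20.0 CPM [11.2, 32.9], cluster 11 16.8 [8.05, 30.9], cluster 0 13.9 [8.22, 21.9], cluster 13 11.97 [7.82, 17.5] and cluster 2 6.56 CPM [4.203, 9.76]. Neighbours in either order overlapped. Cluster 3, high in Sstr2, had only 2.57 CPM of Gcg in ShhN and 2.76 CPM in wild type cells. Cluster 13, also high in Sstr2, had 2.81 CPM of Gcg in ShhN cells. Radial glia-like, GABAergic interneuron-like and vascular cells had 0 Gcg UMIs in both libraries; the upper interval bound was 2.07 CPM in ShhN and 2.70 CPM in wild type radial glia-like cells. Free RNA, measured in barcodes with 1 to 50 UMIs, held 2 Gcg UMIs in the ShhN and 1 in the wild type library.

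No single cluster passed the size rule for Gcg. The ratio was 0.67 [-0.03, 1.46] in cluster 0 on 175 ShhN and 18 wild type UMIs, 0.65 [-0.09, 1.42] in cluster 2, 0.26 [-0.73, 1.40] in cluster 11 and -0.60 [-1.40, 0.31] in cluster 9. In cluster 13 there were 3 UMIs in ShhN and 26 in wild type cells, under the minimum of 50. The migrating neuron-like class passed, with 11.96 CPM in ShhN and 4.64 CPM in wild type cells (1.37 [0.89, 1.87], where 0.809% of 10501 genes were called higher); cluster 0 held 175 of its 237 Gcg UMIs in ShhN and 18 of 43 in wild type cells. Of 395 Gcg UMIs in ShhN cells 44.3% lay in cluster 0, and of 114 in wild type cells 15.8%.

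**Figure D2:**
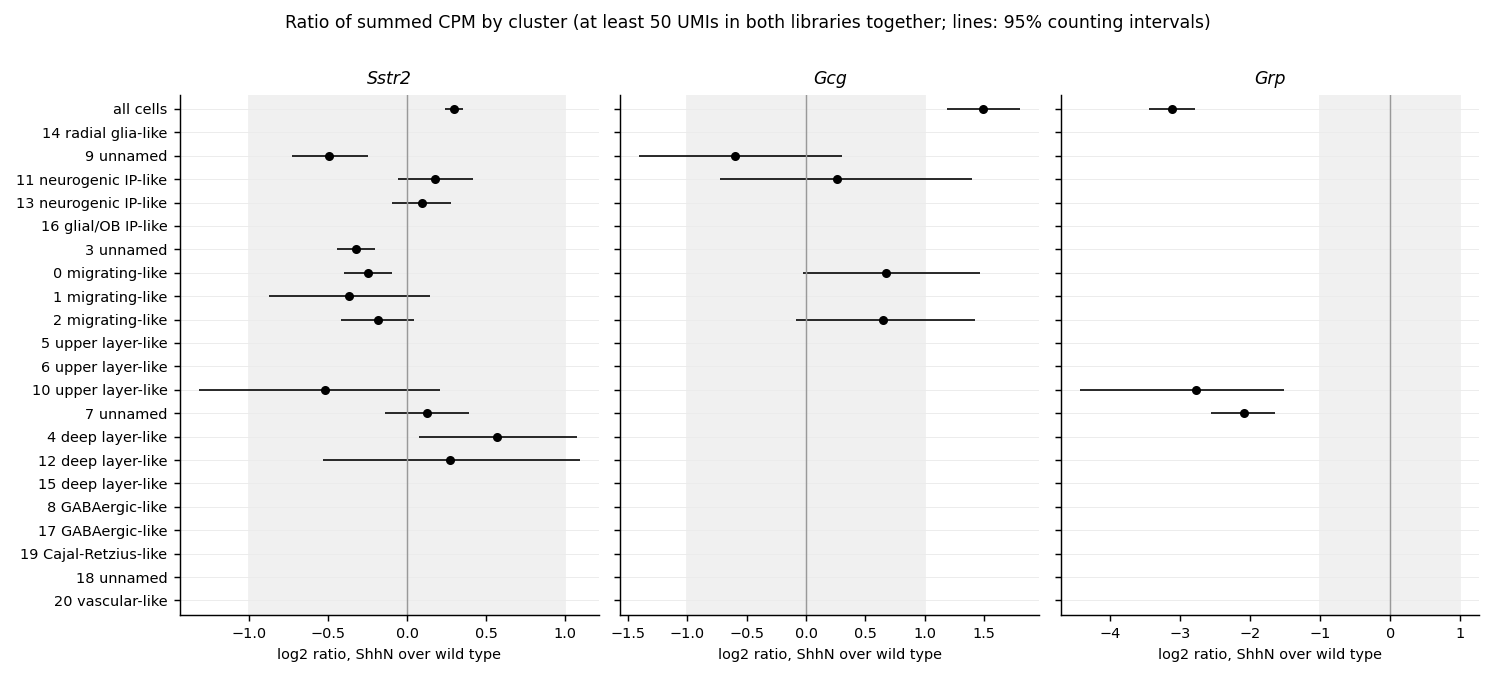
Log2 ratio, ShhN over wild type, of Sstr2, Gcg and Grp by cluster, with 95% counting intervals; clusters with fewer than 50 UMIs of the gene over both libraries have no point, and the grey band spans -1 to 1. IP stands for intermediate progenitor and OB for olfactory bulb. Gcg is at 1.49 over all cells while none of its 4 clusters lies beyond the band, and both Grp clusters lie below it.

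Most cells with Gcg also had Sstr2. Of 293 ShhN cells with a Gcg UMI 66.9% also had an Sstr2 UMI, against 30.5% of the other ShhN cells; of 98 such wild type cells 64.3% did, against 25.4% of the others. Median depth was 6241 UMIs in the ShhN Gcg cells and 6703 UMIs in the other ShhN cells. Inside cluster 9 the Gcg cells were deeper, at 9085.5 against 8568 UMIs in ShhN and 9998 against 8318 UMIs in wild type cells. Among ShhN cells they were also deeper in cluster 2 (6817 against 6144 UMIs) but shallower in cluster 11 (5290 against 5609 UMIs). The pair was not counted at equal depth. Inside cluster 0 the shares in ShhN cells were 81.4% of 129 Gcg cells and 62.7% of the rest, and in wild type cells 70.6% of 17 and 68.3% of the rest. Inside cluster 9 they were 70.0% of 50 and 43.2% of the rest in ShhN cells, and 90.9% of 11 and 56.0% of the rest in wild type cells. Inside cluster 2 they were 22 of 44 cells and 26.8% of the rest in ShhN cells, and 39.1% of 23 and 28.8% of the rest in wild type cells. Cluster 11 had 66.7% of 33 and 76.7% of the rest in ShhN cells, the opposite order, and 88.9% of 9 and 72.0% of the rest in wild type cells. Over all cells Eomes, a T-box factor of intermediate progenitors, was seen in 40.0% of ShhN and 39.3% of wild type cells with Sstr2. It was seen in 7.86% of the other ShhN and 5.80% of the other wild type cells. By cluster the gap was uneven. In ShhN cells it was 85.3% with Sstr2 and 29.6% of the rest in cluster 9, and 51.7% and 28.2% in cluster 3. In ShhN cells of cluster 11 it was 76.0% and 76.9%, and in cluster 13 94.8% and 92.5%. Wild type shares were 86.6% and 79.2% in cluster 11, and 98.5% and 89.8% in cluster 13.

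Over 42 profiles (21 clusters of at least 20 cells in each of 2 libraries, log2 of CPM plus 10), the genes most like Sstr2 among 10472 were Cul1, a scaffold of ubiquitin ligases (Pearson r = 0.93), Rnd2, a small GTPase of migrating neurons that is also on the marker list (r = 0.92), and Abcd2, a peroxisomal transporter (r = 0.91). Those most like Gcg were Tfap2d, an AP-2 family transcription factor (r = 0.81), Sstr2 itself (r = 0.75) and Paip2 (r = 0.72). The profiles share their libraries and neighbouring clusters, so these are descriptions.

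The promoters of Gcg and Sstr2 are shown because these members were both found in clusters 0, 9 and 11, though not alike in cluster 3. Both are RefSeq windows of 250 bases before and 50 after the start on GRCm38.p6, given 5′ to 3′ on the gene's strand. That of Gcg is chr2:62483604-62483903 (minus strand) and its capitals mark the letters TATAAA, read on the minus strand of the window as TTTATA at the first place. That of Sstr2 is chr11:113619077-113619376 (plus strand) and its capitals mark the cyclic AMP response letters TGACGTCA.
Gcg: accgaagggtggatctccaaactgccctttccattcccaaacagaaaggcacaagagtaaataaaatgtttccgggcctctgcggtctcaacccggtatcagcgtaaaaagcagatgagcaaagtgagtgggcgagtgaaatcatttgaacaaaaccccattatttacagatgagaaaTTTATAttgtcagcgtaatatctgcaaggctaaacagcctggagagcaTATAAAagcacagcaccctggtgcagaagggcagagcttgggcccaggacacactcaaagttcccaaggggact
Sstr2: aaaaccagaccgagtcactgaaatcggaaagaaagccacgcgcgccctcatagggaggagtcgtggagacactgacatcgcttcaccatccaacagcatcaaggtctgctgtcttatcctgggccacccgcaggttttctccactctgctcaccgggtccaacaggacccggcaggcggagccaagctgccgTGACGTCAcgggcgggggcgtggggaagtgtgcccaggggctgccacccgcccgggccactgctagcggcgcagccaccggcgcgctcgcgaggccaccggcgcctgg
They differ in composition. The Sstr2 window has 66.3% G and C and 27 CpG dinucleotides and the Gcg window 47.0% and 7, where the medians over 32851 mouse promoter windows are 52.7% and 7. TGACGTCA starts 58 bases before the Sstr2 start and is found in 1.79% of all windows. TATAAA starts 24 bases before the Gcg start, the second match 72 bases before it is on the other strand, and 13.6% of windows hold one. Both strands were searched. CAGATG, the letters of an E-box, is found 2 times in the Gcg window and in 17.2% of all windows. The GLI letters GACCACCCA and the T-box letters AGGTGTGA are in none of the 5 members' windows (Npy, Cck, Nts, Gcg and Sstr2), and in 0.253% and 1.28% of all windows. A match is a description of letters, and no match says only that these letters are not in the window.

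Npy was, in these embryonic cells, mainly a gene of deep layer neuron-like cells. In cluster 12 (Hs3st4, Tle4) it stood at 844 CPM in ShhN and 1036 CPM in wild type cells, in cluster 15 (Igfbp3, Hs3st4) at 943 CPM in ShhN and 866 CPM in wild type cells, and in cluster 4 (Ldb2, Fezf2) at 561 CPM in ShhN and 747 CPM in wild type cells. GABAergic interneuron-like cluster 8 (Sst, Lhx6, Maf) followed with 420.0 CPM in ShhN and 304 CPM in wild type cells, and shallow unnamed cluster 18 had 304 CPM in ShhN and 254 CPM in wild type cells. In wild type cells clusters 12, 15 and 4 each lay above the next without overlap of intervals, and clusters 8 and 18 overlapped. In ShhN cells clusters 15 and 12 overlapped, as did clusters 8 and 18. Npy UMIs were unevenly spread over cells: in wild type cluster 4, 269 of 436 cells had none and 1 held 135. These intervals, and those of the ratios below, treat UMIs as independent and so understate the error. The order of these clusters is therefore not settled by them. Cluster 4 alone held 42.1% of Npy UMIs in ShhN and 38.2% in wild type cells. Cluster 4 and cluster 12 ratios were -0.41 [-0.49, -0.34] and -0.30 [-0.39, -0.20], and cluster 8 had 0.47 [0.29, 0.64]; none passed the size rule. Npy was among the 10 leading genes of cluster 4 by fold over other cells.

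Even there many cells had no Npy UMI. At equal depth a Npy UMI was found in 49.3% [43.1, 55.4] of ShhN and 55.9% [49.3, 62.4] of wild type cells of cluster 12, and in 24.5% [21.0, 28.4] and 29.9% [25.6, 34.5] of those of cluster 4. Single cells reached 134 UMIs in the ShhN and 135 in the wild type library. In clusters 0 to 3 the level was 8.57 to 11.4 CPM in ShhN and 16.7 to 22.0 CPM in wild type cells. Vascular cells, which should lack the gene, had 1 Npy UMI (2.38 CPM) in ShhN and 9 UMIs (20.6 CPM) in wild type cells, while barcodes with 1 to 50 UMIs held 138 CPM in the ShhN and 157 CPM in the wild type library. There were 2 calls for Npy by cluster. In cluster 3 Npy was lower, with 8.80 CPM in ShhN and 22.0 CPM in wild type cells (-1.33 [-2.04, -0.66], where 0.596% of 8218 genes were lower); the wild type level is within the interval of the vascular cells, 9.42 to 39.1 CPM, and no cell of either library had over 2 UMIs. With each library's free RNA subtracted the ratio was -2.89. In cluster 16 (Olig1, Olig2, Sp9), which is glial or olfactory bulb intermediate progenitor-like, Npy was higher, with 89.6 CPM in 261 ShhN and 24.9 CPM in 24 wild type cells (1.85 [0.69, 3.32], where 1.16% of 4653 genes were higher). Of these, 18 ShhN cells had at least 3 Npy UMIs and 1 wild type cell did; at equal depth 12.2% [8.13, 17.4] of ShhN and 8.33% [1.03, 27.0] of wild type cells had a Npy UMI, and these intervals overlapped. The call ends with cells thinned to equal depth (2.12 [0.22, 5.19]), and with the clustering redone at resolution 0.5 (0.85 [0.25, 1.51]) or with doublets kept (0.80 [-0.10, 1.85]), among other settings that redo it.

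In cluster 8 Npy went with Sst. Of 82 ShhN cells with Npy 68.3% had Sst, against 35.0% of the other 157; of 183 wild type cells with Npy 55.2% had Sst, against 29.0% of the other 421. Interneuron-like cells made up 3.45% of ShhN and 11.2% of wild type cells, and Sst had 23.5 CPM in ShhN and 42.6 CPM in wild type cells when all cells were summed, but 1174 CPM in ShhN and 739 CPM in wild type cells within cluster 8. The genes most like Npy over the 42 profiles were Gpr22, an orphan G protein-coupled receptor (r = 0.87), Grik3, a kainate receptor subunit (r = 0.86), and Neto2, an auxiliary subunit of kainate receptors (r = 0.84).

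Inside the ShhN library Npy was higher in cells that carried Shh in clusters 4, 5 and 6, and not in migrating neuron-like clusters. This split was chosen after values were seen; both sides come from the same library, so it is no comparison of conditions. Cells with at least 3 Shh UMIs had 245 CPM of Npy [227, 265] over 332 cells, and those without a Shh UMI 109.6 CPM [107, 112] over 7491 cells. In cluster 4 the levels were 1556 CPM in 21 carrying and 501 CPM in 536 Shh-free cells (log2 1.63 [1.47, 1.80]), and 747 CPM in wild type cells. In upper layer neuron-like cluster 5 they were 363 CPM in 23 carrying and 75.2 CPM in 480 Shh-free cells (2.27 [1.90, 2.63]), and in cluster 6 (Inhba) 216 CPM in 82 carrying and 75.7 CPM in 365 Shh-free cells (1.51 [1.20, 1.81]). These intervals treat UMIs as independent, so with UMIs gathered in few cells they understate the error. In cluster 4, 1 carrying cell held 102 of the 344 Npy UMIs. Without the cell richest in Npy on each side, cluster 4 had 1148 CPM in carrying and 473 CPM in Shh-free cells, cluster 5 had 231 and 63.8 CPM, and cluster 6 had 157 and 67.7 CPM.

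By cells, at least 3 Npy UMIs were found in 10 of 21 carrying cells of cluster 4 (47.6% [25.7, 70.2]) and in 96 of 536 Shh-free cells (17.9% [14.8, 21.4]). At equal depth the shares were 38.1% [18.1, 61.6] of carrying and 13.6% [10.8, 16.9] of Shh-free cells. In cluster 5 they were 21.7% [7.46, 43.7] of carrying and 3.33% [1.92, 5.36] of Shh-free cells, which overlapped at equal depth (13.04% [2.78, 33.6] and 3.01% [1.66, 5.0]). In cluster 6 the intervals overlapped at full depth, with 10.98% [5.14, 19.8] of carrying and 5.48% [3.38, 8.34] of Shh-free cells. Carrying cells of cluster 4 were deeper, at a median of 10301 UMIs, against 8228 UMIs in Shh-free cells. In migrating neuron-like clusters 0, 1 and 2, none of 62, 28 and 68 carrying cells had 3 Npy UMIs, nor did 1235, 867 and 620 Shh-free cells, except 1 cell of cluster 1. The level was 0 CPM in carrying and 11.4 CPM in Shh-free cells of cluster 0, with an upper bound of -0.11 for the log2 ratio. It was 4.28 CPM in carrying and 10.4 CPM in Shh-free cells of cluster 1, and 8.26 and 8.29 CPM in those of cluster 2. Sstr2 showed no such gap in cluster 0, with 304 CPM in carrying and 274 CPM in Shh-free cells (0.15 [-0.14, 0.43]), and Gcg had 19.6 CPM in carrying and 21.2 CPM in Shh-free cells there (-0.12 [-1.46, 0.96]).

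**Figure D3:**
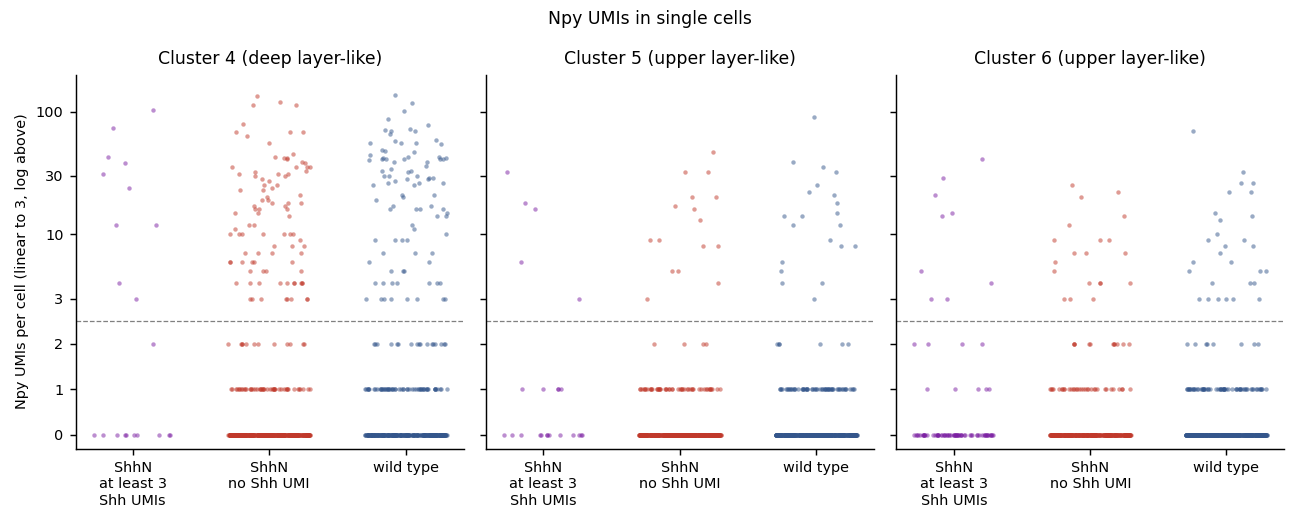
Npy UMIs in single cells of clusters 4, 5 and 6; each point is a cell, the vertical axis is linear to 3 and logarithmic above, and the dashed line sets off cells with at least 3 UMIs. ShhN cells with at least 3 Shh UMIs stand left, ShhN cells without a Shh UMI in the middle and wild type cells right; in cluster 4, 10 of 21, 96 of 536 and 93 of 436 cells lie above the line.

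In wild type cells Grp lay mostly in 2 clusters, and it was lower in both in the ShhN library. In unnamed cluster 7, whose leading genes include Nrp2 and Crym, it had 19.1 CPM in ShhN and 81.5 CPM in wild type cells (-2.09 [-2.56, -1.65], where 0.549% of 8742 genes were lower). In cluster 10, upper layer neuron-like and led by Nefl and Nefm, it had 4.11 CPM in ShhN and 28.2 CPM in wild type cells on 5 and 112 UMIs (-2.78 [-4.43, -1.51], where 0.539% of 7604 genes were lower). At equal depth 5.19% [2.86, 8.55] of ShhN and 21.6% [18.2, 25.2] of wild type cells of cluster 7 had a Grp UMI, and 3.42% [1.12, 7.81] and 9.60% [7.03, 12.7] of those of cluster 10. At least 3 UMIs were found in 5 of 281 ShhN cells (1.78%) and 65 of 601 wild type cells (10.8%) of cluster 7. The upper layer neuron-like class, which holds cluster 10, had 1.69 CPM in ShhN and 10.7 CPM in wild type cells (-2.66 [-3.51, -1.90], where 0.786% of 10055 genes were lower). Cluster 10 held 5 of its 16 Grp UMIs in ShhN and 112 of 124 in wild type cells. It was also 155 of 1133 ShhN and 474 of 1436 wild type cells of the class. The class's other clusters had few Grp UMIs, 5 in ShhN and 8 in wild type cells of cluster 5, and 6 and 4 in those of cluster 6. Cells with 2 times the UMI minimum, clustered anew, gave -0.86 [-2.36, 0.55] for that class, which ends the call, and doublets kept gave -1.61 [-2.91, -0.45], which also ends it. The migrating neuron-like class passed the rule too, with 0.959 CPM in ShhN and 4.10 CPM in wild type cells (-2.10 [-2.97, -1.27], where 0.514% of 10501 genes were lower), on levels below the 10.4 CPM of wild type free RNA; ShhN free RNA held 0 Grp UMIs, which allows up to 2.52 CPM. GABAergic interneuron-like and Cajal-Retzius-like cells held 0 and 0 Grp UMIs in ShhN and 1 and 0 in wild type cells.

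Grp cells of cluster 7 often had Cck as well. Of 24 ShhN cells with Grp 62.5% had a Cck UMI, against 26.5% of the rest, and of 179 wild type cells 53.6% did, against 38.2% of the rest. The cells with Grp were deeper, at a median of 9068 UMIs in ShhN and 9658 UMIs in wild type cells, against 7967 UMIs in the other ShhN and 7874.5 UMIs in the other wild type cells. Genes most like Grp included Slit3, a secreted guidance ligand of Robo receptors (r = 0.82), and Zfp385b (r = 0.66), both among the leading genes of cluster 7. The promoter table used here matched the 5 members other than Grp.

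Cck levels were high in cluster 7 and in interneuron-like cluster 8 in both libraries. In cluster 7 it stood at 139 CPM [124, 155] in ShhN and 186 CPM [174, 198] in wild type cells (-0.42 [-0.60, -0.24]), and in cluster 8 at 104 CPM in ShhN and 102 CPM in wild type cells (0.03 [-0.32, 0.36]). Cluster 7 held 26.9% of Cck UMIs in ShhN and 46.9% in wild type cells. Of deep layer neuron-like clusters, cluster 12 had 48.9 CPM in ShhN and 61.6 CPM in wild type cells, and upper layer neuron-like cluster 5 had 45.3 CPM in ShhN and 64.0 CPM in wild type cells. Neurogenic intermediate progenitor-like and radial glia-like classes had 0.561 to 2.40 CPM in ShhN and 2.17 to 3.66 CPM in wild type cells. One cluster passed the size rule. Interneuron-like cluster 17 (Htr3a, Npas1) had 154 CPM in 40 ShhN and 58.1 CPM in 173 wild type cells (1.41 [0.63, 2.16] on 26 and 39 UMIs, where 0.149% of 2689 genes were higher), but at equal depth Cck was seen in 2 of 9 ShhN and 7 of 35 wild type cells. Without the richest cell of each library the ratio was 1.14 [0.22, 2.01], which does not pass the size rule. The genes most like Cck were Gng2, a G protein gamma subunit (r = 0.85), Tubg2, a gamma tubulin (r = 0.82), and Evl, an actin regulator (r = 0.82).

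**Figure D4:**
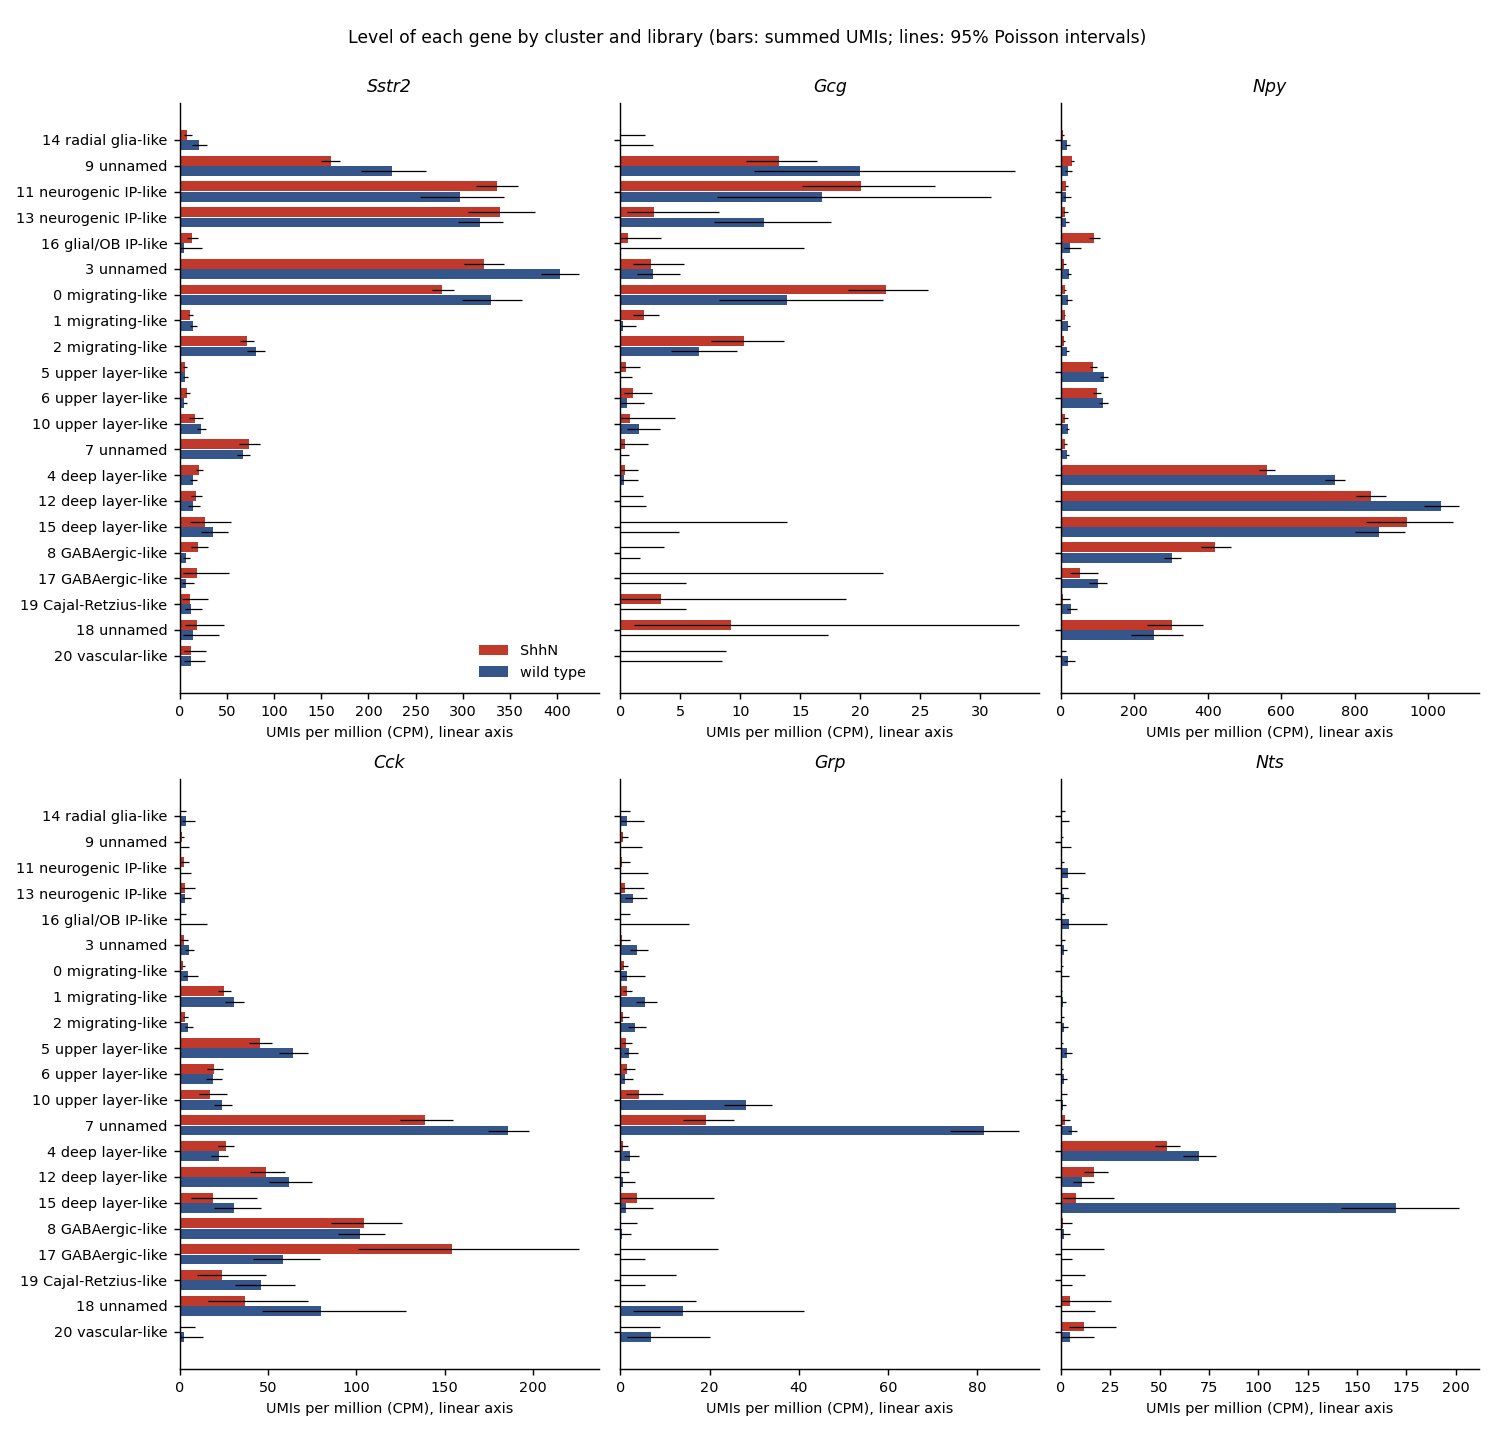
Level of each gene by cluster in CPM, on linear axes that start at 0 and differ between genes; red bars (upper) are ShhN and blue bars (lower) wild type cells, and lines are 95% Poisson intervals. IP stands for intermediate progenitor and OB for olfactory bulb. Among the tallest bars are clusters 0 and 11 for Sstr2 and Gcg, deep layer-like clusters for Npy and Nts, and cluster 7 for Grp and Cck.

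Nts was carried by few cells, so its intervals understate its error. The 10 cells richest in Nts held 88.0% of its 326 UMIs in the ShhN and 66.9% of its 501 UMIs in the wild type library, and 37 ShhN and 102 wild type cells had any. For Sstr2 the 10 richest cells held 1.65% of UMIs in ShhN and 2.35% in wild type cells. Nts lay in deep layer neuron-like cluster 4, at 53.7 CPM in ShhN and 70.0 CPM in wild type cells (-0.38 [-0.63, -0.13]), where 15 ShhN and 31 wild type cells had a UMI. A single ShhN cell there held 98 of the 268 UMIs. In cluster 15 Nts passed the size rule, with 7.51 CPM in ShhN and 170 CPM in wild type cells (-4.50 [-7.56, -2.62], where 0.0861% of 3484 genes were lower). That rested on 1 of 80 ShhN cells, with 2 UMIs, and 8 of 223 wild type cells, of which 1 held 54 of the 128 UMIs; cluster 15 was also shallow, at a median of 3081 UMIs. In cluster 12 the level was 16.8 CPM in ShhN and 10.5 CPM in wild type cells, where 1 wild type cell held 16 of 18 UMIs. Few cells held both Nts and Npy. In cluster 4, 0 of 174 ShhN and 8 of 167 wild type cells with Npy had Nts, against 3.76% of the other ShhN and 8.55% of the other wild type cells. Over all cells 0.388% of ShhN cells with Npy had Nts, against 0.468% of the others, and in wild type cells the order was the opposite, 2.01% of cells with Npy and 1.35% of the others. No Nts UMI fell in the 21 Shh-carrying cells of cluster 4, where 536 Shh-free cells held 268. Since only 15 of 573 ShhN cells of that cluster had any Nts, 21 cells are too few for an absence to be read. The genes most like Nts were Iqcj (r = 0.80), Rtn4rl1, a relative of the Nogo receptor (r = 0.79), and Igfbp3, which binds insulin-like growth factors (r = 0.77).

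**Figure D5:**
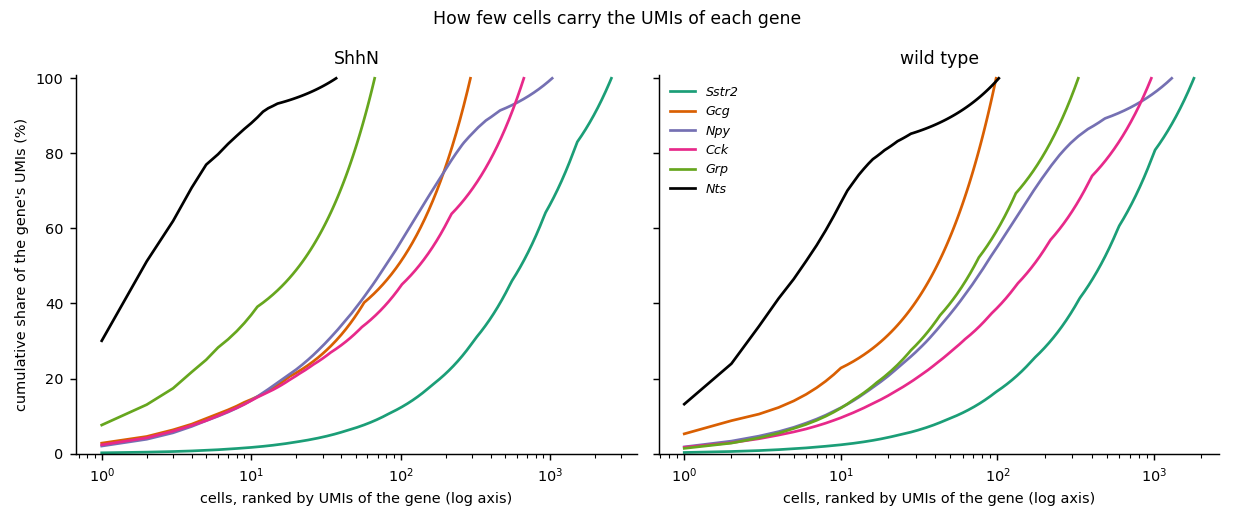
Cumulative share of each gene's UMIs over cells ranked by their UMIs of that gene (logarithmic horizontal axis), ShhN left and wild type right. After 10 cells Nts has reached 88.0% in ShhN and 66.9% in wild type cells, and Sstr2 1.65% and 2.35%.

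The other genes of the peptide systems were set beside the members. Of 41 further peptide precursor genes 11 had at least 50 UMIs over all cells, with a median log2 ratio of -0.16, beside -0.08 for all 13023 genes. None was higher and 2 were lower, where 2.85% and 1.84% of all genes were, namely Pnoc, which encodes prepronociceptin, at 1.88 CPM in ShhN and 5.08 CPM in wild type cells (-1.43 [-1.77, -1.10]), and Tac2, which encodes neurokinin B, at 3.51 CPM in ShhN and 8.16 CPM in wild type cells (-1.22 [-1.47, -0.97]). Tac2 was also lower within intermediate progenitor-like cluster 13, with 33.8 CPM in ShhN and 70.9 CPM in wild type cells (-1.07 [-1.64, -0.54], where 0.329% of 6386 genes were lower). Pnoc was 160.2 CPM in ShhN and 125 CPM in wild type cells of cluster 17 (0.36 [-0.33, 0.996]).

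Of 17 receptor genes for the member peptides and somatostatin in the matrices, 5 were measured, namely Npy1r, Ntsr1, Sort1, Sstr1 and Sstr3, with a median of -0.49, beside -0.08 for all genes. None was higher and 1 was lower, where 2.85% and 1.84% of all genes were. The lower one was Sstr1, at 1.01 CPM in ShhN and 2.93 CPM in wild type cells (-1.53 [-2.003, -1.08]). The receptors of glucagon, glucagon-like peptides, cholecystokinin and gastrin-releasing peptide had fewer than 50 UMIs. Ntsr1, a neurotensin receptor, was highest in deep layer-like clusters 12 and 15, with 52.5 CPM in ShhN and 46.5 CPM in wild type cells of cluster 12 and 48.8 CPM in ShhN and 63.7 CPM in wild type cells of cluster 15. In cluster 4, where most Nts UMIs lay, Ntsr1 had 11.03 CPM in ShhN and 12.6 CPM in wild type cells. Of 11 genes of peptide processing and dense core granules 10 were measured over all cells, where none passed in either direction and the median was -0.12. Pcsk1n, an inhibitor of the convertase PCSK1, was 144 CPM in ShhN and 240.2 CPM in wild type cells (-0.74 [-0.78, -0.70]). By class, Pcsk1n passed as lower in the neurogenic and the glial or olfactory bulb intermediate progenitor-like classes, the second with only 24 wild type cells. The share of all genes called lower in these classes is not given here, so nothing is read from these calls. Scg2, of the same list, passed as higher in the migrating neuron-like class, where 0.809% of 10501 genes were higher. Pcsk2, a convertase that cuts peptide precursors, was higher in cluster 8, with 64.9 CPM in ShhN and 23.8 CPM in wild type cells (1.45 [0.91, 1.99], where 0.359% of 6410 genes were higher), the cluster in which Sst stood at 0.67 [0.56, 0.77] and Npy at 0.47.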

How the data were processed

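Droplet single-cell RNA-seq was deposited as 1 count matrix for each of 2 groups (4 ShhN and 4 wild type samples). The deposited values are raw UMI counts per gene and barcode, as the authors' files hold them, with no normalization; each matrix lists 737280 barcodes, empty droplets among them. Cell Ranger, StringTie, Seurat 3 and mm10 are named, without a role, per the submitters' processing notes. Barcodes end in a single suffix within a matrix, which leaves cells untraceable to samples, and matrices were matched to groups by their control and experimental prefixes.

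Cells had at least 10% of the 99th percentile of UMIs of the top 3000 barcodes (2290 UMIs in ShhN, 2333 in wild type), at least 800 genes and at most 10% mitochondrial UMIs. Scrublet (scanpy 1.11.5, expected rate 6%) removed 241 ShhN and 296 wild type doublets, leaving 82.5% of 69470062 and 72.8% of 63760199 UMIs in cells. Clustering used 2000 variable genes without the members, listed peptide genes and SHH genes, 30 components, 15 neighbours and Leiden resolution 1 (leidenalg 0.10.2, igraph 0.11.9). A cluster was named if at least 3 markers of its best of 17 lists were in 10% of its cells and 1.5-fold above other cells, and no other list led; this rule was adjusted after clusters were seen.

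UMIs were summed per cluster and library. CPM have exact Poisson, ratios exact conditional binomial and shares exact Clopper-Pearson intervals (95%), for counting error only. Ratios needed 20 cells in each library. Besides the members, the text names listed genes with at least 50 UMIs, Shh, Ptch1, Eomes and Sst for context, cluster leaders, and for each member the 3 genes of highest Pearson r among those with at least 200 UMIs; Slc39a11 was added after its overlap was seen. A gene chosen by this rule is not reported here. TMM scaling used edgeR 4.0.16. Equal-depth shares thinned cells to 4500 UMIs and left out shallower ones (1057 ShhN, 1663 wild type). The size rule was tested on simulated counts. Coordinates are GENCODE vM21 on GRCm38. Members, lists and rules were chosen with earlier results of these data known.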

Additional observations from a re-analysis of the deposited data

Results flagged for a closer look

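Npy differed in the direction of its ratio between clusters. It was lower in ShhN cells of unnamed cluster 3 (log2 ratio -1.33) and higher in ShhN cells of glial or olfactory bulb intermediate progenitor-like cluster 16 (1.85). The difference between the clusters was not tested. The first rests on 24 ShhN and 88 wild type UMIs at a level near that of vascular cells, and the second on 148 ShhN UMIs and 6 wild type UMIs in 24 cells.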

How the results depend on the processing

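No paired analysis was possible because the matrices do not tie cells to samples; for the same reason no replicate could be left out, and no difference has a replicate check. None of the 10 all-cell results (108 values under other settings) or 65 class and cluster results (600 values) reversed a called direction, and 88 and 503 of these values stayed close to the first. Results without a call had none to reverse, and some of their ratios changed sign. Among them, Nts in the deep layer-like class ranged from -1.54 to 0.50 and Sstr2 in the upper layer-like class from -1.47 to 0.64. ShhN levels at wild type cluster shares gave -2.11 for Grp, -0.24 for Npy, -0.27 for Cck, 0.19 for Gcg and -0.13 for Sstr2, which ends the calls of Cck and Gcg. TMM scaling gave -0.40 for Npy and 0.39 for Sstr2, a shift of 0.09 for all cells and of up to 0.13 (cluster 11). Equal depth gave -0.59 for Npy, -1.23 for Cck and 0.36 for Sstr2. Equal weight per cell gave -0.55 for Npy and -1.73 for Nts, a UMI minimum 0.5 times as high -0.59 for Npy, and one 2 times as high -0.70 for Nts and 0.42 for Sstr2. Cells without a Shh UMI gave -0.57 for Npy. Nts was -0.038 at no more than 5% mitochondrial UMIs and -1.24 without its richest cell in each library. Genes lower over all cells were 240, against 138 at a minimum of 200 UMIs and 153 at equal depth. Grp lay between -3.22 and -2.97 and Gcg between 1.39 and 1.58 under the other all-cell settings. The fixed-share, Shh-free and richest-cell settings were chosen after seeing the data.

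Class values moved under settings that redo the clustering, on the same or on other cells: Grp in the upper layer-like class ranged from -3.01 to -0.86, Gcg in the neurogenic intermediate progenitor-like class from -2.35 to 0.45, Npy in the interneuron-like class from -0.02 to 0.54, and Npy in the glial or olfactory bulb intermediate progenitor-like class from 0.80 to 2.61. Cluster 7 kept Grp between -2.30 and -2.02 in the 7 settings that keep the clusters; the cause of the class shifts was not tested.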
